A study of Homo sapiens with 6 samples.

Results

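The genes described here are 10 nuclear factors that make, stabilise, cut and degrade the RNA of human mitochondria: POLRMT, TFAM, TFB2M, TEFM, LRPPRC, SLIRP, FASTKD4, ELAC2, PNPT1 and SUPV3L1. They were listed by name for their known roles, with earlier results of these data known, and all 10 were found among the 60671 gene rows of the count tables (FASTKD4 under its other symbol, TBRG4). They are set beside the 13 protein-coding genes of mitochondrial DNA itself, whose count rows are called its messenger RNAs below. RNA was sequenced from NCI-H69, an established human small cell lung cancer line labelled as wild type, grown with the vehicle DMSO (3 libraries) or with GNF5 at 20 µM (3 libraries), both for 48 h. GNF5 is an allosteric inhibitor of the ABL tyrosine kinases. Its dose carries a micromolar unit in the sample labels and a millimolar unit in the treatment protocol, and the former was used. The title of the series places the experiment in a study of replication stress after loss of ABL kinase activity. Whether each library came from its own culture is not stated, so the p-values speak of the spread between libraries, which may be technical.

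Mitochondrial DNA is read from promoters on its heavy and light strands into long transcripts that span many genes. POLRMT is the RNA polymerase, TFAM bends the promoter and packs the DNA, TFB2M opens the promoter, and TEFM keeps the polymerase on the template. The transfer RNAs that lie between the coding genes are then cut out, ELAC2 releasing their 3′ ends. LRPPRC and SLIRP form a complex that holds and protects the messenger RNAs, FASTKD4 is an RNA-binding protein needed for the stability of some of them, and the helicase SUPV3L1 with the exoribonuclease PNPT1 makes up the complex that degrades mitochondrial RNA.

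The libraries held between 46148701 and 60697602 counts. All 8 neuroendocrine markers examined were at or above 1 count per 1000000 counts (CPM) in every library, with summed levels of 3246 to 3354 CPM with DMSO and 3455 to 3591 with GNF5. They did not move together: NCAM1 was at 475.2 to 494 CPM with DMSO and 722 to 738.7 with GNF5, while DDC was at 240.9 to 260.6 and 100.4 to 107.4, GRP at 42.6 to 45.8 and 16.9 to 20.2, and SYP at 171.7 to 192.3 and 145.6 to 153.1. Of 8 fibroblast markers, 3 reached that level in every library. Their sum was 121.5 to 127.1 CPM with DMSO and 65.9 to 73.5 with GNF5, most of it COL1A2, while COL3A1 was at 0. Leukocyte markers summed to 4.71 to 5.06 CPM with DMSO and 3.49 to 4.41 with GNF5, with CD3E and NKG7 at 0, and lung epithelium markers to 8.41 to 9.13 and 3.15 to 3.85 CPM, with SFTPB at 0. The part of these differences in the results below was not tested. In bulk RNA, fewer cells of a type and less RNA per cell cannot be told apart.

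The factors did not move as a block. SUPV3L1, PNPT1, LRPPRC and POLRMT rose with GNF5, SLIRP, TFB2M and FASTKD4 fell, and TFAM, TEFM and ELAC2 did not pass the test (edgeR's quasi-likelihood test, adjusted p under 0.05 over 20734 genes). The degradation helicase SUPV3L1 rose most and SLIRP fell most. Thus 4 of 10 were higher and 3 lower, where 31% of all genes tested were higher and 30.7% lower, or 61.6% in either direction. Most of the factors are well expressed, and of the 10289 genes at or above the mean level of the lowest of them, TEFM, 77.1% were called, and the 7 of 10 called lie between these shares. The groups did not overlap for 7 of the 10, against 65.9% of all genes tested and 8183 of those 10289 genes. The median log2 fold change of the 10 factors was -0.07, beside 0.01 for all genes tested and 0.02 for the 10289. Their median absolute log2 fold change was 0.17, beside 0.34 for all genes tested and 0.25 for the 10289. Levels below are CPM after TMM scaling, with the SD over 3 libraries. Fold changes are log2 values of GNF5 against DMSO with their standard error (SE).

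**Figure D1:**
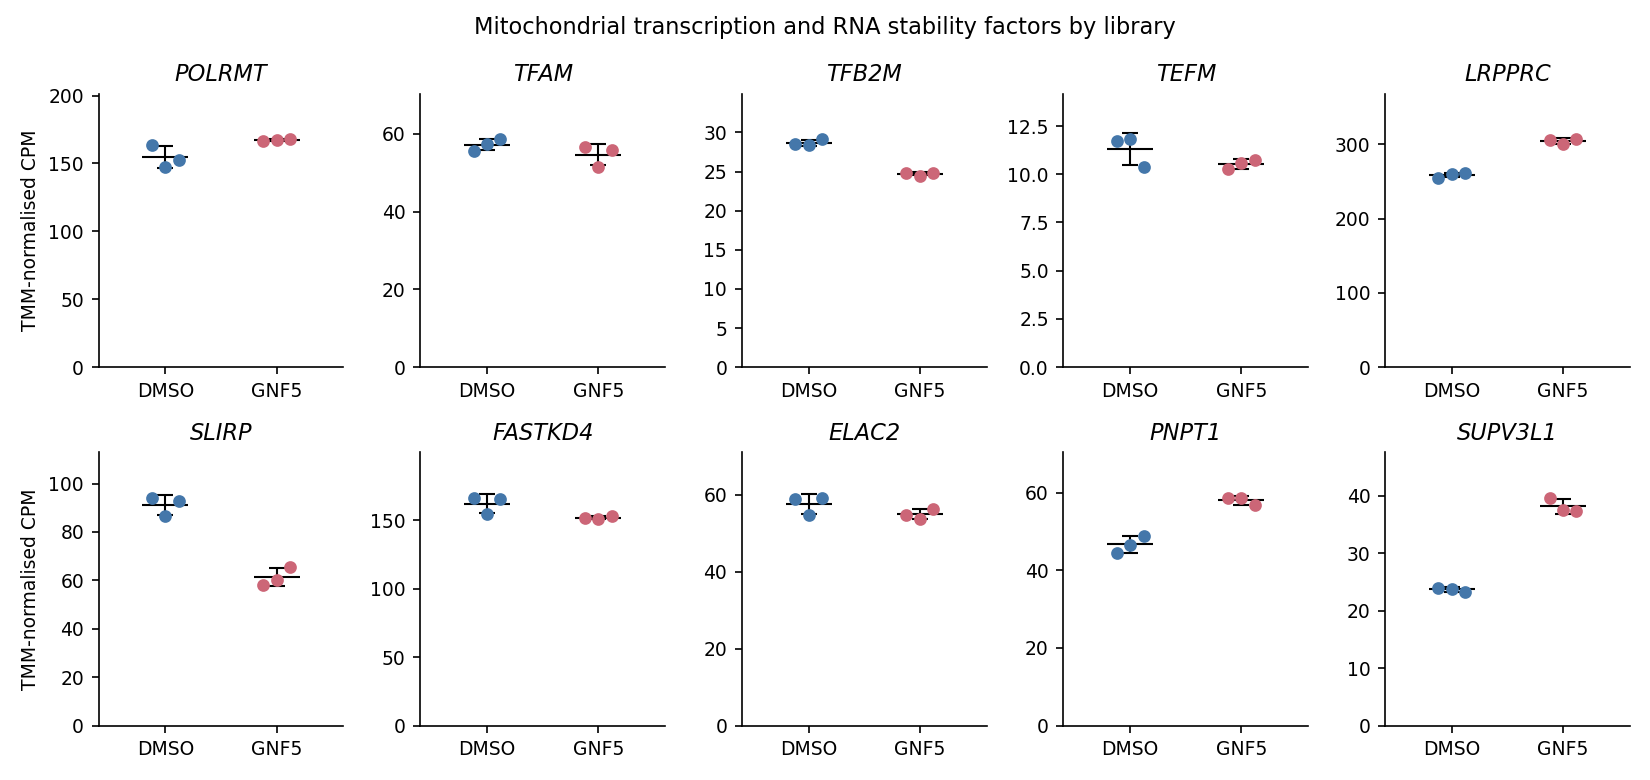
TMM-normalised CPM (vertical axes, from 0) of the 10 factors in the 3 DMSO and 3 GNF5 libraries, 1 point a library, with the mean and SD in black. SUPV3L1 went from 23.7 to 38.2 CPM and SLIRP from 91.2 to 61.3, while TFAM, TEFM and ELAC2 overlap between the groups.

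Among the transcription machinery, the polymerase and the promoter-opening factor went in opposite directions, both by small amounts. POLRMT (ENSG00000099821, chromosome 19, 617221 to 633537, GRCh38) had 163.3, 147.6 and 152.6 CPM in the DMSO libraries and 166.8, 167.5 and 167.9 in the GNF5 libraries. Every GNF5 library lay above the highest DMSO library, but only by a few CPM, and the GNF5 libraries were far closer to each other than the DMSO libraries. The log2 fold change was 0.12 ± 0.036 (adjusted p = 0.00721). This call was lost without DMSO replicate 2 (0.08, adjusted p = 0.0835) or DMSO replicate 3 (0.10, adjusted p = 0.0528). A pseudogene, POLRMTP1, had 479 to 645 counts a library and can take part of the reads of POLRMT.

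TFB2M (ENSG00000162851, chromosome 1, 246540561 to 246566261) had 28.6, 28.4 and 29.1 CPM with DMSO and 24.8, 24.5 and 24.9 with GNF5. The groups were well separated and both were tight. It fell by 0.22 on the log2 scale (SE 0.05, adjusted p = 0.00043), which is a loss of 13.9%, and it passed under each of the 13 alternatives tried.

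TFAM and TEFM showed no difference beyond the spread of their libraries. TFAM (ENSG00000108064, chromosome 10, 58385345 to 58399220) had 55.6, 57.5 and 58.6 CPM with DMSO and 56.5, 51.5 and 55.8 with GNF5, so that GNF5 replicates 1 and 3 lay within the DMSO range. Its log2 fold change was -0.07 ± 0.044 (adjusted p = 0.19), with a 95% interval from -0.16 to 0.02. TEFM (ENSG00000172171, chromosome 17, 30897336 to 30906238), the lowest of the factors, had 11.7, 11.8 and 10.4 CPM with DMSO and 10.3, 10.6 and 10.7 with GNF5. DMSO replicate 3 lay among the GNF5 values. The log2 fold change of TEFM was -0.10 ± 0.077 (adjusted p = 0.246), with a 95% interval from -0.26 to 0.05, so that a change as large as that of TFB2M was within its interval.

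The promoter windows of POLRMT and TFB2M held the core letters bound by NRF1, a regulator of nuclear genes for mitochondrial proteins. Windows from 250 bases before to 50 after the start site (RefSeq, GRCh38.p14) were matched for all 10 factors and searched on both strands. The NRF1 letters GCATGCGC were in 2 of the 10, beside 3.05% of 35116 windows of the same length. Letters of the ETS factors, CCGGAAG, were in 5 of the 10 (POLRMT, TEFM, SLIRP, ELAC2 and FASTKD4), beside 10.3% of all windows. The E-box CACGTG (7.26% of windows) and TGATGNAA, part of an ATF4 element (3.62%), were in 0 of the 10. None of these motifs contains another. The windows set beside the factors were not matched to them for expression or base content, and enrichment was not tested. The 250 bases before the start are shown for POLRMT and TFB2M because they share the NRF1 letters while their RNAs moved in opposite directions. They are written 5′ to 3′ on the gene strand, with matches to the NRF1 and ETS letters on either strand in capitals.
POLRMT promoter, chr19:633538-633787, minus strand: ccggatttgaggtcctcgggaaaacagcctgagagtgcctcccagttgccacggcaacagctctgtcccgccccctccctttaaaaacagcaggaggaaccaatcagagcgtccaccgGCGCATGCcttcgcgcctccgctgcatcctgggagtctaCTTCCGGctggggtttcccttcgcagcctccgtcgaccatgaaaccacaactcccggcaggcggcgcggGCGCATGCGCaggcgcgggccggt
TFB2M promoter, chr1:246566262-246566511, minus strand: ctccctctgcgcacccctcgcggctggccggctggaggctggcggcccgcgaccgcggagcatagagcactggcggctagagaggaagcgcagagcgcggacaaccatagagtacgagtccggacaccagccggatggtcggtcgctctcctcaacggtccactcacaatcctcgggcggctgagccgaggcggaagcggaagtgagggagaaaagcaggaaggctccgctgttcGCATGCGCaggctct
In POLRMT the NRF1 letters begin 132 bases and, as an overlapping pair on opposite strands, 24 and 22 bases before the start. In TFB2M they begin 15 bases before it. A match of letters is a description of the sequence and does not show binding. Only the exact letters given were searched, so variants of a site are missed. A window without a match can still hold a site. The RNA of NRF1 itself was 28.4 ± 0.555 CPM with DMSO and 29.3 ± 1.8 with GNF5 and did not pass the test (log2 fold change 0.05 ± 0.052, adjusted p = 0.467).

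The partners of the RNA-protecting complex diverged. LRPPRC (ENSG00000138095, chromosome 2, 43886224 to 43995989) had 255.1, 259.9 and 260.9 CPM with DMSO and 306, 300.1 and 307 with GNF5. All GNF5 libraries were above all DMSO libraries, with a gap several times the SD of either group. It rose by 0.23 ± 0.031 (adjusted p = 2.04e-07), or 17.7%. SLIRP (ENSG00000119705, chromosome 14, 77708071 to 77761104), the small partner that needs LRPPRC for its own stability as a protein, had 94.2, 86.6 and 92.9 CPM with DMSO and 58.2, 60.1 and 65.6 with GNF5. Every GNF5 library was below every DMSO library. It fell by 0.57 on the log2 scale (SE 0.045, adjusted p = 5.8e-12), a loss of 32.8%. Of the exon bases of SLIRP, 10.3% are shared with C14orf178, a same-strand neighbour that had 13 counts in all.

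Levels of different genes were compared per length, as CPM per 1000 exon bases. The length covers all annotated exons of a gene and can differ from that of the transcripts present. The order of genes on this measure therefore depends on the annotation. With DMSO, SLIRP had 34.7 ± 1.55 CPM per kilobase and LRPPRC 25.8 ± 0.308. With GNF5 the order on this measure was turned round, at 23.3 ± 1.47 for SLIRP and 30.4 ± 0.368 for LRPPRC. The ratio of LRPPRC to SLIRP per length was 0.711, 0.788 and 0.737 in the DMSO libraries and 1.38, 1.31 and 1.23 in the GNF5 libraries, 1.75-fold higher on average. The groups did not overlap, and the exact two-sided permutation test gave p = 0.1, the smallest value that 3 libraries against 3 can give. This ratio compares 2 RNAs within a library and does not depend on the scaling between libraries. Its fold difference between the groups does not depend on the lengths used, but the order of the 2 genes does.

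**Figure D2:**
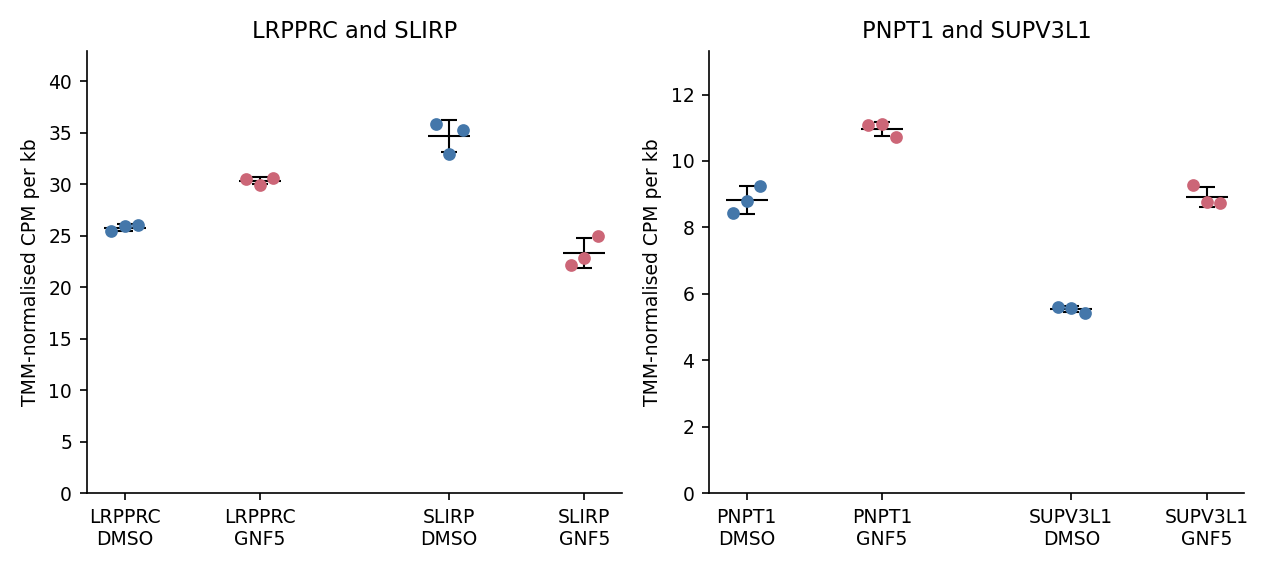
TMM-normalised CPM per kilobase of exon (vertical axes, from 0) of LRPPRC and SLIRP (left) and of PNPT1 and SUPV3L1 (right), 1 point a library, with the mean and SD in black. LRPPRC rose while SLIRP fell, so their order on this measure, which depends on the annotated exon lengths, is reversed between DMSO and GNF5. PNPT1 and SUPV3L1 both rose.

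FASTKD4 (TBRG4, ENSG00000136270, chromosome 7, 45100100 to 45112047) changed little. It had 166.5, 154.3 and 165.5 CPM with DMSO and 151.4, 151.2 and 153.4 with GNF5. The groups were separate only by the gap between 153.4 and 154.3 CPM. The log2 fold change of FASTKD4 was -0.09 ± 0.035 (adjusted p = 0.0242). The call was lost without DMSO replicate 1 (adjusted p = 0.0872), DMSO replicate 3 (0.102), GNF5 replicate 2 (0.0739) or GNF5 replicate 3 (0.0545), over a range of 0.00153 to 0.102 for all alternatives.

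ELAC2 (ENSG00000006744, chromosome 17, 12991612 to 13018065), which trims the 3′ ends of transfer RNA precursors in mitochondria and in the nucleus, was at 59, 54.7 and 59.3 CPM with DMSO and 54.8, 53.8 and 56.4 with GNF5. DMSO replicate 2 lay among the GNF5 values. Its log2 fold change was -0.07 ± 0.044 (adjusted p = 0.179), and it passed only without DMSO replicate 2 (-0.11, adjusted p = 0.0306).

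Both genes of the degradation complex rose, and clearly. PNPT1 (ENSG00000138035, chromosome 2, 55634061 to 55693863), the exoribonuclease, had 44.6, 46.5 and 49 CPM with DMSO and 58.6, 58.7 and 56.7 with GNF5. Its lowest GNF5 library was well above its highest DMSO library. PNPT1 rose by 0.31 ± 0.044 (adjusted p = 5.22e-07), or 24.3%. Its pseudogene PNPT1P1 had 14 to 37 counts a library. SUPV3L1 (ENSG00000156502, chromosome 10, 69180234 to 69209099), the helicase that feeds RNA to PNPT1, had 24, 23.9 and 23.2 CPM with DMSO and 39.7, 37.5 and 37.4 with GNF5. The separation of the groups was the widest of the 10 factors relative to their level. SUPV3L1 rose by 0.69 ± 0.049 (adjusted p = 7.52e-13), which is 1.61-fold, and 77.6% of all genes tested had a smaller absolute log2 fold change. Since the helicase rose by more than the nuclease, the ratio of SUPV3L1 to PNPT1 per length, chosen after the values were seen, went from 0.629 ± 0.04 to 0.814 ± 0.024 (n = 3 each).

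**Figure D3:**
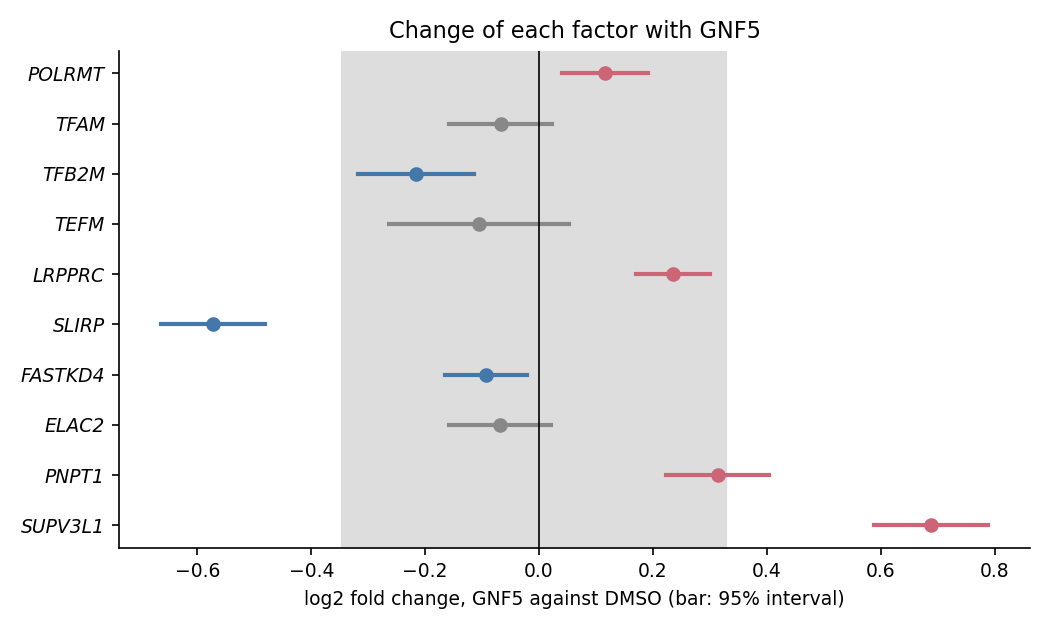
Log2 fold change of each of the 10 factors, GNF5 against DMSO (horizontal axis), with its 95% interval from edgeR's fit; red passed the test as higher, blue as lower, grey did not pass, and the grey band spans the middle of all tested genes from the lower quartile of -0.35 to the upper quartile of 0.33. SUPV3L1 and SLIRP lie outside that band on opposite sides, and the points of the other 8 lie within it.

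Ordered by level per length, the factors with DMSO ran from SLIRP (34.7 CPM per kilobase) through POLRMT (30.5), FASTKD4 (27.9), LRPPRC (25.8), TFB2M (16.1), TFAM (10.8), PNPT1 (8.82), ELAC2 (8.24) and SUPV3L1 (5.54) to TEFM (4.28). Of neighbours in this order, only PNPT1 and ELAC2 overlapped in their DMSO libraries. With GNF5, POLRMT (33.1) was highest, LRPPRC (30.4) came next, and SLIRP (23.3) stood in place 4 behind FASTKD4 (26.2). PNPT1 rose past TFAM (10.3) and SUPV3L1 (8.93) past ELAC2 (7.85). TEFM, the elongation factor, was lowest in both groups. Places in this order depend on the annotated exon lengths.

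The RNAs on which these factors act moved apart from each other. Of all genes tested, 31% were higher and 30.7% lower, and 77.1% of those at or above the level of TEFM were called. Of the 13 mitochondrial messenger RNAs, counted by gene row, 7 rose, 5 fell and MT-CYB did not pass. Together they took 4.81%, 4.96% and 4.99% of all counts in the DMSO libraries and 5.61%, 6.11% and 5.76% in the GNF5 libraries, so every GNF5 library was above every DMSO library (1.18-fold, exact two-sided permutation p = 0.1, the smallest possible here). Fragments that align equally well to nuclear copies of mitochondrial sequence are left out of these counts. The rows of MT-ATP8 and MT-ATP6, and of MT-ND4L and MT-ND4, overlap on the same strand, and MT-CO3 shares 1 base with MT-ATP6. The 13 are thus rows of genes and not 13 separate molecules, and changes are given for each row.

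The messenger RNAs that rose most were MT-ND4, a subunit of complex I, and MT-CO1 and MT-CO2, core subunits of cytochrome c oxidase. MT-CO3, of the same enzyme, fell (log2 fold change -0.32). MT-ND4 (mitochondrial chromosome, 10760 to 12137) had 6762, 7449 and 7294 CPM with DMSO and 11136, 11426 and 10981 with GNF5. It rose by 0.64 ± 0.038 on the log2 scale (adjusted p = 1.47e-14). MT-CO1 (5904 to 7445) went from 10634 ± 209 to 16065 ± 636 CPM, and MT-CO2 (7586 to 8269) from 4614 ± 229 to 6603 ± 319. No GNF5 library overlapped a DMSO library in any of these. MT-ND5, MT-ATP6, MT-ND4L and MT-ATP8 rose by less, with log2 fold changes of 0.32, 0.30, 0.29 and 0.14. MT-ATP8 shares 22.2% of its bases with MT-ATP6, and fragments that fall on both are not counted for either.

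Those that fell included 4 messenger RNAs cut from the same heavy-strand transcript as the ones that rose. MT-ND1 (3307 to 4262) had 2998, 2939 and 3077 CPM with DMSO and 1888, 2149 and 2040 with GNF5, a fall of 0.57 on the log2 scale. MT-ND2, MT-ND3 and MT-CO3 had log2 fold changes of -0.47, -0.33 and -0.32. The changes did not follow chromosome order: MT-ND1 and MT-ND2 at the promoter end were lower, MT-CO1 to MT-ATP6 higher, MT-CO3 and MT-ND3 lower and MT-ND4L to MT-ND5 higher. Hence the ratio of MT-CO1 to MT-ND1 per length, chosen after the values were seen, was 2.15, 2.25 and 2.18 with DMSO and 5.18, 4.85 and 4.75 with GNF5, 2.24-fold higher on average.

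MT-ND6, the only messenger RNA made from the light strand and one that is known to depend little on LRPPRC and SLIRP, fell most. MT-ND6 (14149 to 14673, the opposite strand) had 1803, 1610 and 1628 CPM with DMSO and 524.4, 682.2 and 653.8 with GNF5. Every GNF5 library was far below every DMSO library. The log2 fold change was -1.44 ± 0.125 (adjusted p = 0.000544), a loss of 63.1%. MT-ND5, which abuts MT-ND6 on the other strand, rose by 0.32. MT-CYB, on the far side of MT-ND6 and also on the other strand, had 3591, 3819 and 3686 CPM with DMSO and 3088, 3861 and 3674 with GNF5 and did not pass (log2 fold change -0.06 ± 0.082, adjusted p = 0.54, and 0.03 without GNF5 replicate 1). MT-ND6 messenger RNA is known to lack a long poly(A) tail, and the sources used here do not give how RNA was selected for these libraries. The part of RNA selection, or of LRPPRC and SLIRP, in the fall of MT-ND6 was not tested.

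**Figure D4:**
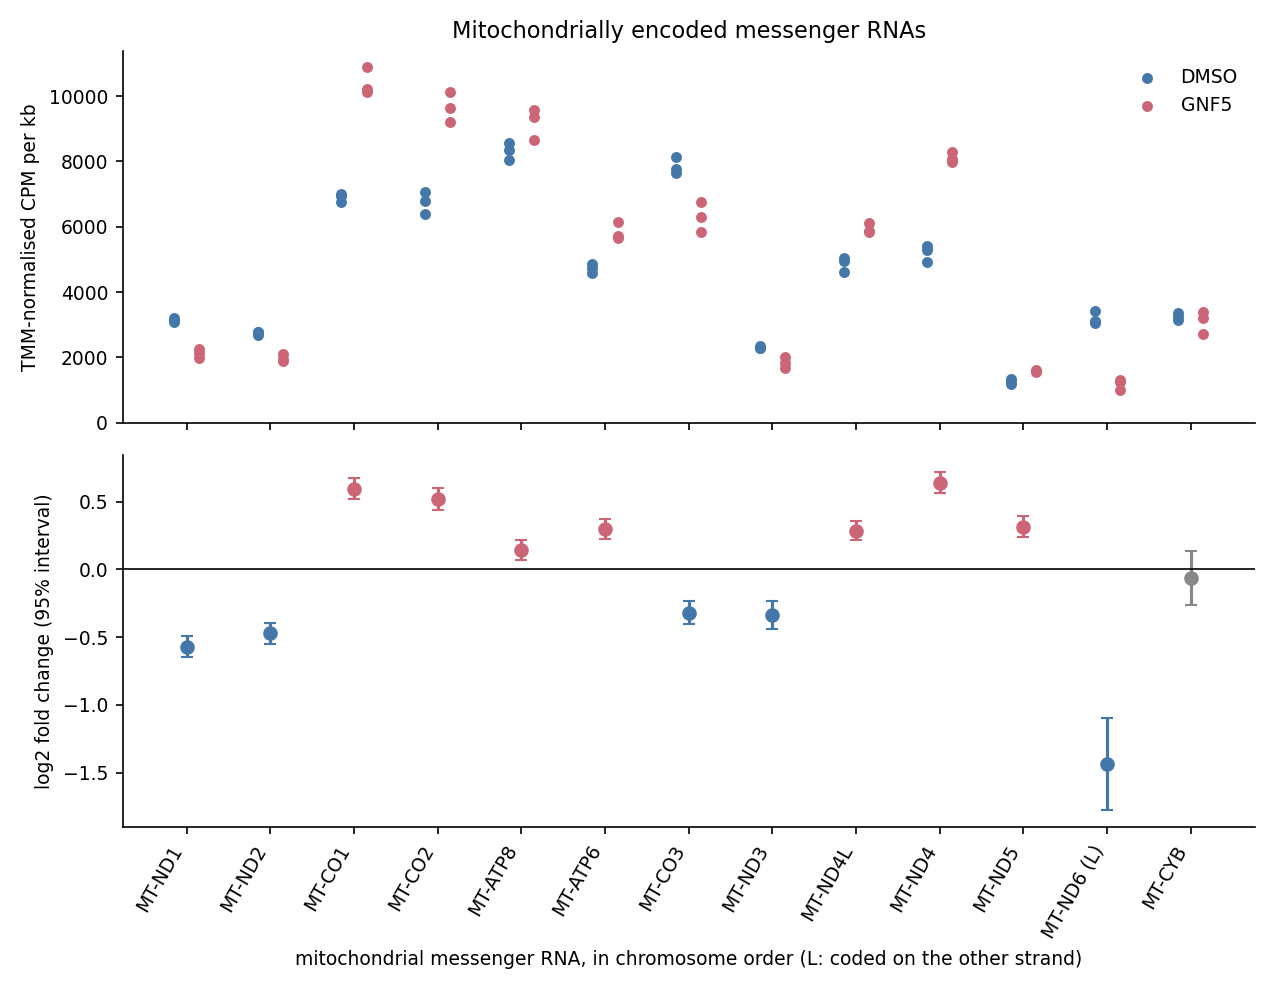
The 13 mitochondrial messenger RNAs in chromosome order (horizontal axis), with TMM-normalised CPM per kilobase by library above and the log2 fold change, GNF5 against DMSO, with its 95% interval below (red higher, blue lower, grey did not pass). Runs of higher and of lower genes follow each other along the chromosome, and MT-ND6, marked L for its other strand, is lowest at -1.44.

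As shares of all mitochondrial messenger RNA counts, which are free of the scaling between libraries, MT-CO1 went from 21.6% ± 0.085 to 27.6% ± 0.489, MT-ND4 from 14.5% ± 0.448 to 19.2% ± 0.542 and MT-CO2 from 9.35% ± 0.271 to 11.4% ± 0.125 (SD, n = 3 each). MT-CO3 went from 12.5% ± 0.364 to 8.47% ± 0.278, MT-ND1 from 6.1% ± 0.172 to 3.48% ± 0.101 and MT-ND6 from 3.41% ± 0.295 to 1.06% ± 0.112. The shares are parts of the same total, so a rise of some lowers others. MT-ATP8 rose in level, while its share went from 3.49% ± 0.064 to 3.27% ± 0.084. MT-CYB did not pass in level, while its share went from 7.5% ± 0.16 to 6.08% ± 0.498. Of the 13 shares, 11 did not overlap between the groups, where the levels of 65.9% of all genes tested did not overlap. In exact two-sided permutation tests each of these 11 had p = 0.1, or 0.118 adjusted over the 13, so that none can pass with 3 libraries a group.

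The ribosomal RNAs and transfer RNAs of mitochondria were set beside them. MT-RNR2, the large ribosomal RNA, was at 19104 ± 921 CPM with DMSO and 19097 ± 921 with GNF5 (log2 fold change 0.00 ± 0.041, 95% interval -0.085 to 0.084). MT-RNR1, the small ribosomal RNA, was uneven within groups, at 2920, 5252 and 3748 CPM with DMSO and 4610, 5560 and 5698 with GNF5, and did not pass (adjusted p = 0.241). Rows for the 22 transfer RNAs, whose products ELAC2 trims, held few counts, 0 to 1150 a library. Fragments that overlap a neighbouring gene are left out of them. Summed, they had 82.0, 89.8 and 81.0 counts per 1000000 counts with DMSO and 39.5, 52.2 and 53.4 with GNF5, with no overlap of the groups. Of the 18 that could be tested, 12 fell and 1, MT-TP, rose, beside 30.7% lower and 31% higher among all genes tested. On the strand of MT-ND6, 3 of the 7 tested fell, 1 rose and 3 did not pass. On the other strand 9 of 11 fell, 0 rose and 2 did not pass. MT-TS2 fell most, with 233, 255 and 243 counts in the DMSO libraries and 25, 53 and 22 in the GNF5 libraries. MT-TP and MT-TS2 were named after their values were seen. What such rows measure, precursors or mature transfer RNA, was not tested.

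Around the 10 factors, 66 other genes of mitochondrial gene expression were examined in 7 lists. Of these genes 26 rose, 16 fell and 24 did not pass. Of all genes tested, 31% were higher and 30.7% lower, or 61.6% in either direction. Of those at or above the level of TEFM, 77.1% were called. The number called among the 66 is near the 61.6% and below the 77.1%. Counts for each list below are to be read against these shares. The median log2 fold change of the 66 was 0.02. The list with the highest median was that of nuclear regulators (5 of 8 rose, 1 fell, median 0.16). PPARGC1A, the coactivator PGC-1α that promotes mitochondrial biogenesis, had 10.0, 10.8 and 8.73 CPM with DMSO and 31.3, 28.7 and 29.4 with GNF5 (SE of the log2 fold change 0.069, adjusted p = 9.22e-18). This 3.03-fold rise was the largest of the 66 genes. The related coactivator PPRC1 rose by 0.68 ± 0.042 and ESRRA, a nuclear receptor that partners PPARGC1A, by 0.50 ± 0.041. GABPA, an ETS factor known to act on nuclear genes for mitochondrial proteins, fell by 0.20 on the log2 scale (SE 0.05).

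Among genes that act on transcript ends and turnover, 4 of 9 rose and 4 fell (median -0.14). TRMT10C, a subunit of the mitochondrial RNase P that makes the 5′ cut opposite to the 3′ cut of ELAC2, went from 26.6 ± 0.418 to 19.8 ± 0.326 CPM (log2 fold change -0.42 ± 0.053, adjusted p = 5.83e-08). REXO2, which clears the short fragments that degradation leaves, rose by 0.37 ± 0.035, and the nuclease ENDOG fell by 0.58 on the log2 scale. Of the other 5 FASTK family genes, 1 rose and 1 fell (median -0.11). FASTKD5, needed to process messenger RNAs that no transfer RNA separates, went from 37.9 ± 0.62 to 22.8 ± 1.28 CPM (log2 fold change -0.74 ± 0.051, adjusted p = 4.54e-13). Of its exon bases, 3.52% are shared with UBOX5. FASTKD2 rose by 0.18 ± 0.064, a call lost without DMSO replicate 3 (adjusted p = 0.157), GNF5 replicate 1 (0.061) or GNF5 replicate 3 (0.0725).

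Of the 5 genes for termination and the ribosomal RNA dimethylase, 2 rose and 1 fell (median 0.09). MTERF1, a protein that binds mitochondrial DNA just past the ribosomal RNA genes and blocks transcription there, went from 15.2 ± 0.786 to 9.18 ± 0.149 CPM (log2 fold change -0.72 ± 0.073, adjusted p = 1.16e-09), while MTERF2 and MTERF3 rose by 0.18 and 0.17. In RNA granule and RNA-binding genes 2 of 8, PTCD2 and MTRES1, rose (both 0.22) and 0 fell (median -0.01). Of 18 genes that modify ribosomal and transfer RNA, 7 rose and 5 fell (median 0.05), and the 3 of lowest p-value, MTO1, PUS1 and CDK5RAP1, which modify transfer RNA bases, rose by 0.66, 0.48 and 0.35. Of 13 genes of mitochondrial DNA replication and the nucleoid, 5 rose and 4 fell (median 0.07). The mitochondrial topoisomerase TOP1MT rose from 12.9 ± 0.385 to 26.6 ± 0.587 CPM, and LONP1, the matrix protease that degrades TFAM, from 317.7 ± 5.71 to 506.7 ± 9.95. The nuclease and helicase DNA2 fell by 0.55 on the log2 scale.

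**Figure D5:**
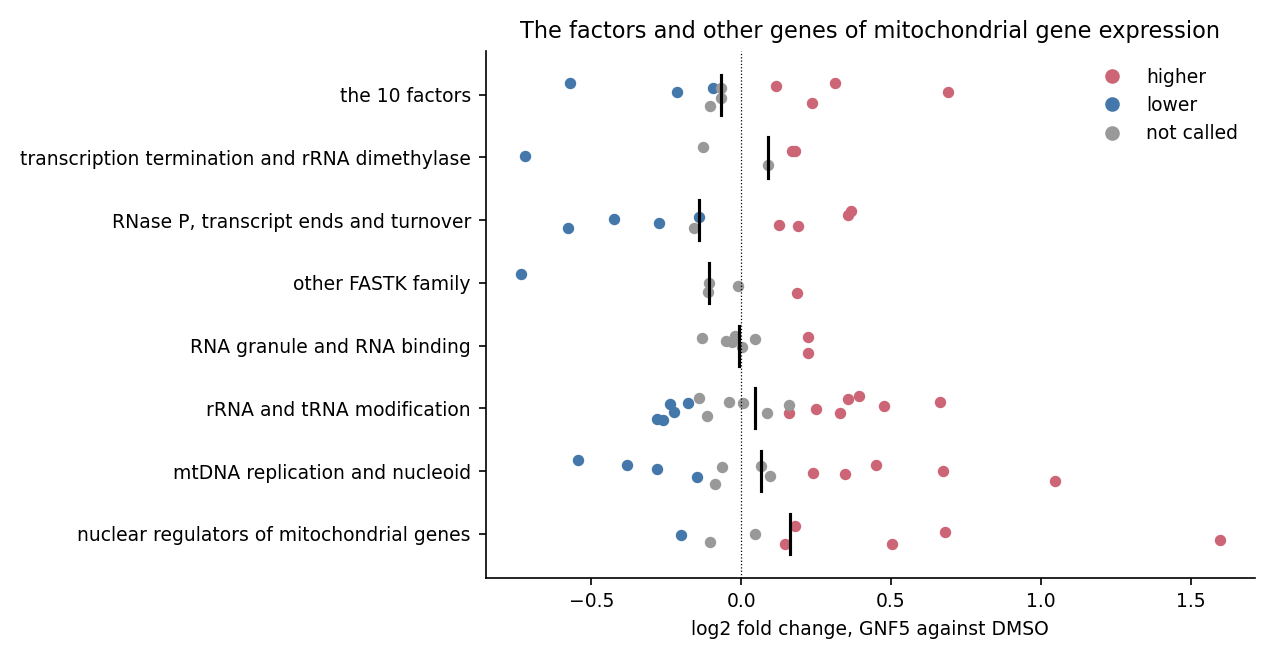
Log2 fold change, GNF5 against DMSO (horizontal axis), of the 10 factors and of the 7 lists of other genes of mitochondrial gene expression, 1 point a gene (red higher, blue lower, grey did not pass), with the median of each list as a black bar. All medians lie between -0.14 and 0.16, and each list except that of RNA granule and RNA-binding genes holds genes that rose and genes that fell.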

How the data were processed

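The authors deposited raw fragment counts per gene, 1 file a library. Per the file headers, read pairs were counted with featureCounts 1.6.1, reverse-stranded, over exons summed by gene (Ensembl 101, GRCh38), with default settings that leave out multi-mapped fragments and fragments on several genes. The submitters' processing notes list GRCh37, HTSeq, STAR, Trim Galore and DESeq2 with no roles, and coordinates follow the headers. The sources used here give no aligner version. Symbols were found for 60401 of 60671 IDs.

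The members, lists and tests were chosen with earlier results of these data known. GNF5 was compared with DMSO (3 libraries each) with edgeR 4.0.16 in R 4.3.3: quasi-likelihood test with robust fit, TMM, default expression filter (20734 genes kept; the rest held 0.063% of counts), no covariate, Benjamini-Hochberg adjustment over all genes, threshold 0.05. The SE is the size of the log2 fold change over the square root of F. The script was tested on simulated data. Shares and ratios used exact permutation tests. No libraries of a group were duplicates: chi-square per degree of freedom was 3.18 to 8.76 between them. A gene with 3 counts lies at 0.0494 to 0.065 CPM, counting error only. Named genes are the members, the messenger and ribosomal RNAs of mitochondria, up to 3 called genes of lowest p in each list (mean log2 CPM of at least 1), and NRF1, GABPA, ESRRA and PPARGC1A. Alternatives were DESeq2 1.42.0 (size factors, Wald test), upper-quartile factors, other filters, chromosome MT left out, a replicate block and leaving out each library.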

Additional observations from a re-analysis of the deposited data

How the results depend on the processing

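Each alternative other than leaving out a library left 4 of the 10 factors higher and 3 lower, and 7 mitochondrial messenger RNAs higher and 5 lower where these were tested. Leaving out a library gave 3 to 4 factors higher and 2 to 4 lower. Only POLRMT, FASTKD4 and ELAC2 changed call, as given with their values. Of the other pathway genes, upper-quartile factors called 25 higher and 22 lower. MT-RNR2, close to no change, turned sign with no filter (0.0013) and ran from -0.036 to 0.041 over all alternatives, and MT-CYB ran from -0.13 without GNF5 replicate 2 to 0.028 without GNF5 replicate 1. Samples with the same replicate number did not deviate together (correlations -0.112, -0.026 and 0.0037). With 3 libraries a group this cannot show whether the numbers pair them. With the replicate block 6279 genes were higher and 6196 lower, against 6426 and 6356 without it, and the counts of factors were 4 and 3. The shares of mitochondrial messenger RNAs and the LRPPRC to SLIRP ratio kept their direction under every alternative tried for them. With 3 libraries a group, an exact test cannot go below 0.1.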
